A study of Homo sapiens with 12 samples.

Results

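The genes described here encode 10 receptor tyrosine kinases that have been studied in osteosarcoma: *MET*, *EGFR*, *ERBB2*, *AXL*, *PDGFRA*, *PDGFRB*, *FGFR1*, *FGFR2*, *EPHA2* and *KIT*. They were chosen by symbol from the 43236 gene symbols of the count tables, and all 10 passed the filter on low counts, as did 15979 genes in all. RNA was measured in MNNG/HOS cells, a human osteosarcoma line obtained by chemical transformation of the HOS line and written HOS-MNNG in the sample labels. The cells received 300 nM NXP800 or the solvent DMSO for 6 h or 24 h, with 3 replicates in each of the 4 groups. NXP800 is a small molecule that came out of work on blockers of heat shock factor 1. A single cell line was sequenced, and no genotype differed between the groups.

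Receptor tyrosine kinases span the plasma membrane and carry a kinase domain inside the cell. Binding of a ligand brings receptors together, they phosphorylate each other, and the phosphorylated tyrosines recruit adaptor proteins that start the RAS-ERK, PI3K-AKT and phospholipase C cascades. Negative regulators such as ubiquitin ligases, phosphatases and Sprouty proteins then limit the signal, and several of these are themselves induced by it. In osteosarcoma, several of these receptors have been examined as drug targets, and in cells of mesenchymal origin *AXL*, *MET*, *EGFR* and the PDGF receptors are commonly expressed. RNA counts measure transcript abundance and carry no information on receptor protein or phosphorylation.

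Counts on genes lay between 30810614 and 31947656 per library. Reads on no annotated gene made up 6.66 to 8.14% at 6 h and 2.73 to 3.67% at 24 h, so the libraries of the time points also differed in composition, and each NXP800 group was compared with DMSO of its own time point. The labelled cell type was checked with 6 osteoblastic or mesenchymal markers. *COL1A1* (143 to 566 CPM, counts per 1e+06 counts of a library), *SPARC* (91.7 to 615 CPM), *RUNX2* (20.7 to 42.5 CPM) and *VIM* (3338 to 5891 CPM) were present in every library, whereas *COL1A2* and *ALPL* had at most 12 and 7 counts. *RUNX2* was higher with NXP800 at both times, at 37.2 ± 2.95 against 22.7 ± 2 CPM at 6 h and 35.2 ± 6.32 against 27.4 ± 1.14 CPM at 24 h. *COL1A1*, *SPARC* and *VIM* were lower with NXP800 at both times. At 6 h their means were 159, 317 and 3773 CPM against 226, 549 and 4303 CPM in DMSO. The means at 24 h were 274, 112 and 3858 CPM against 465, 455 and 5371 CPM. The summed CPM of the 6 markers, most of it *VIM*, was lower with NXP800, at 4195 to 4333 against 5031 to 5220 at 6 h and 3798 to 4634 against 5915 to 6766 at 24 h. Of the markers of other cell types, *CDH1*, *KRT20*, *PTPRC* and *CD3E* had at most 5 counts in a library, and *PECAM1*, *CDH5* and *VWF* stayed below 1 CPM, with a summed level of 1.25 to 1.83 CPM in DMSO and 0.522 to 0.887 in NXP800 at 6 h and 1 to 1.18 against 0.264 to 0.542 at 24 h. *EPCAM* was detected, and the summed level of the 3 epithelial markers was 5.62 to 6.46 CPM in DMSO and 6.26 to 7.07 in NXP800 at 6 h and 5.69 to 5.87 against 10.1 to 10.2 at 24 h. The part of these markers in the results was not tested.

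To rank the receptors against each other, CPM were divided by the length of the main (MANE Select) transcript in kilobases. In DMSO at 6 h, *AXL*, the receptor of GAS6, had the highest level with 80 ± 3.77 CPM per kb (SD, n = 3), followed by the ephrin receptor *EPHA2* with 63.3 ± 4.45. *FGFR1* at 26.7 ± 0.421, *MET* at 24 ± 0.641 and *EGFR* at 11.9 ± 0.956 CPM per kb formed the middle of the order. *PDGFRA* at 6.65 ± 0.406, *ERBB2* at 3.02 ± 0.056 and *PDGFRB* at 2.15 ± 0.285 CPM per kb were lower, and *KIT* at 0.474 ± 0.0706 and *FGFR2* at 0.464 ± 0.0893 were lowest. The libraries of neighbours in this order did not overlap except for *KIT* and *FGFR2*. With the summed length of all annotated exons in place of the main transcript, *MET* came before *FGFR1* and *PDGFRB* before *ERBB2*, so these orders depend on the transcript length used.

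In DMSO at 24 h the order was the same apart from *FGFR2* (0.559 CPM per kb) standing above *KIT* (0.282 CPM per kb). There *AXL* at 100 ± 15.7 and *EPHA2* at 94.5 ± 4.71 CPM per kb overlapped, as did *FGFR1* at 25.9 and *MET* at 24.1. In NXP800 at 6 h, *AXL* (119 CPM per kb) and *EPHA2* (75.2) still led, and *MET* (33.7) and *EGFR* (24.6) now stood above *FGFR1* (19.2), with no overlap between neighbours. In NXP800 at 24 h, *AXL* was at 129 and *EPHA2* at 59.3 CPM per kb, *MET* (25.5) and *EGFR* (22.4) overlapped, and *ERBB2* (5.29) stood above *PDGFRA* (2.69). As a share of the summed CPM per kb of the 10 receptors, *AXL* went from 36.6 ± 1.45% to 42.4 ± 1.02% at 6 h and from 36.2 ± 3.6% to 48.6 ± 3.93% at 24 h, with no overlap between NXP800 and DMSO libraries. These shares depend on each other and are given as a description.

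**Figure D1:**
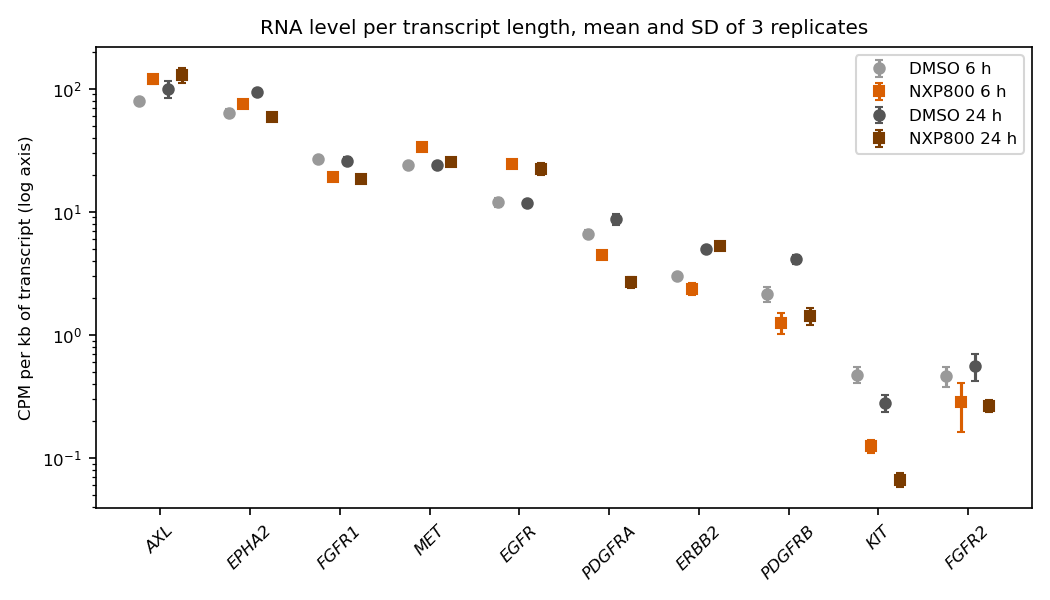
RNA level of the 10 receptor genes in CPM per kb of main transcript (log axis) in the 4 groups, with points for the mean and bars for the SD of 3 replicates. *AXL* and *EPHA2* lie highest in every group, from 59.3 to 129 CPM per kb, and *KIT* and *FGFR2* lowest, at most 0.559 CPM per kb.

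NXP800 changed all 10 receptor genes at 6 h: *MET*, *EGFR*, *AXL* and *EPHA2* rose and *ERBB2*, *PDGFRA*, *PDGFRB*, *FGFR1*, *FGFR2* and *KIT* fell (edgeR quasi-likelihood test, adjusted p below 0.05 over all tested genes). Of all tested genes, 25.0% rose and 27.8% fell at that time, 52.8% in either direction. At 24 h *EGFR* and *AXL* rose, *PDGFRA*, *PDGFRB*, *FGFR1*, *FGFR2*, *EPHA2* and *KIT* fell, and *MET* and *ERBB2* did not pass the test, beside 27.5% of all tested genes that rose, 28.6% that fell and 56.0% in either direction. The median log2 fold change of the 10 genes was -0.41 at 6 h and -0.57 at 24 h, against -0.046 and -0.0033 over all tested genes. At 6 h all NXP800 libraries lay above all DMSO libraries for 4 of the 10 genes and below them for 5, beside 29.3% and 32.7% of all tested genes (62.0% either way). At 24 h they lay above for 1 and below for 6, beside 29.0% and 30.1% (59.1% either way). The labels give replicate numbers only, while the study's statistics section speaks of independent experiments. The p-values measure the spread between these libraries in a model of group means, which leaves out the pairing by replicate number. In bulk RNA, fewer cells that express a gene and less of its RNA per cell cannot be told apart.

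**Figure D2:**
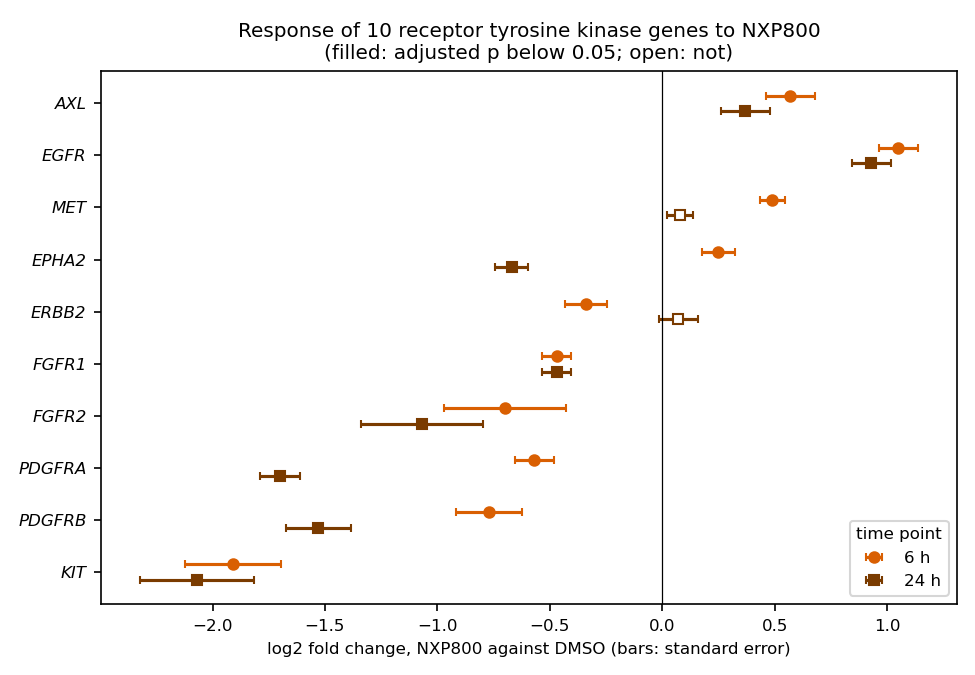
Log2 fold change of each receptor gene with NXP800 against DMSO at 6 h and at 24 h, with bars for the standard error of the fit, filled points for an adjusted p below 0.05 and open points otherwise. *EGFR* lies near 1 at both times, *KIT* near -2 at both, and *EPHA2* at 0.25 at 6 h and -0.67 at 24 h.

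The ERBB family was represented by *EGFR*, which binds EGF-type ligands, and *ERBB2*, which has no known ligand of its own and signals in pairs with other ERBB receptors. *EGFR* (gene ID 1956, chromosome 7, 55019017 to 55211628, GRCh38.p14) was measured at 126, 108 and 119 CPM in the DMSO libraries at 6 h and 254, 252 and 223 CPM in the NXP800 libraries. At 24 h it was at 121, 108 and 121 CPM in DMSO and 212, 251 and 201 CPM in NXP800. Every NXP800 library lay above every DMSO library at both times. The rise was 2.07-fold at 6 h (log2 fold change 1.05, SE 0.0878, adjusted p = 7.48e-08) and 1.91-fold at 24 h (0.93, SE 0.0878, adjusted p = 2.11e-07). The responses at the 2 times did not differ detectably, with a difference of -0.12 on the log2 scale and a range of -0.37 to 0.13 at 2 SE (adjusted p = 0.52). Its exons overlap those of *EGFR-AS1* over 1.17% of their length. The 250 bases before the upstream *EGFR* start, from RefSeq (GRCh38.p14), are shown because this promoter belongs to the receptor with the largest rise among the 10; capitals mark GC boxes, GGGCGG on either strand.
EGFR chr7:55018767-55019016 (plus strand): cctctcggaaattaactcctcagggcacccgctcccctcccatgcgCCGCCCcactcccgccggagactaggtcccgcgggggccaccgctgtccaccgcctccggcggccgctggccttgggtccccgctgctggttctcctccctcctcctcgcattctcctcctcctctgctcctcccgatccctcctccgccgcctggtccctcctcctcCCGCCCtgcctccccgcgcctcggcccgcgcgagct

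*ERBB2* (gene ID 2064, chromosome 17, 39688094 to 39728658) was measured at 14, 13.6 and 13.6 CPM in the DMSO libraries at 6 h and 10.6, 9.82 and 12.1 CPM in the NXP800 libraries. All NXP800 libraries were lower, and the fall was 1.27-fold (log2 fold change -0.34, SE 0.0927, adjusted p = 0.00517). At 24 h DMSO libraries held 22.2, 23.1 and 23.4 CPM and NXP800 libraries 23.3, 22.6 and 26.4 CPM, which overlap. The log2 fold change there was 0.072, with a range of -0.10 to 0.25 at 2 SE (adjusted p = 0.506). The *ERBB2* level in DMSO thus stood at 13.7 ± 0.255 CPM in the 6 h set and 22.9 ± 0.61 CPM in the 24 h set, and time in culture cannot be told apart from the library set. Overlapping exons of *MIEN1* and *PGAP3* cover 6.93% of its exon length.

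*AXL* (gene ID 558, chromosome 19, 41219223 to 41261766), the receptor of GAS6 and a member of the TAM family with *TYRO3* and *MERTK*, was measured at 394, 379 and 359 CPM in the DMSO libraries at 6 h and 585, 584 and 512 CPM in the NXP800 libraries. The 3 NXP800 libraries lay above all DMSO libraries, a 1.48-fold rise (log2 fold change 0.57, SE 0.109, adjusted p = 0.000371). The 24 h libraries held 477, 395 and 543 CPM in DMSO and 577, 543 and 706 CPM in NXP800. These ranges meet at 543 CPM, and the rise was 1.29-fold (0.37, SE 0.109, adjusted p = 0.00895). Without DMSO 24 h replicate 2 or without NXP800 24 h replicate 3 the log2 fold change was 0.25 and no longer passed (adjusted p = 0.0578 and 0.0618). Replicates of the same number are paired, *AXL* was higher with NXP800 in all 3 pairs at 24 h, and under the replicate block the rise passed (0.37, SE 0.0504, adjusted p = 4.27e-06). The difference of the responses was -0.20 (SE 0.154, adjusted p = 0.366), and under the replicate block it passed (-0.20, SE 0.0712, adjusted p = 0.0346).

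*MET* (gene ID 4233, chromosome 7, 116672196 to 116798377), the receptor of hepatocyte growth factor, was measured at 159, 164 and 168 CPM in the DMSO libraries at 6 h and 222, 239 and 229 CPM in the NXP800 libraries. The libraries did not overlap, and the rise was 1.4-fold (log2 fold change 0.49, SE 0.0571, adjusted p = 2.91e-06). At 24 h DMSO libraries held 161, 159 and 174 CPM and NXP800 libraries 175, 175 and 172 CPM. These overlap, and the log2 fold change was 0.079 with a range of -0.035 to 0.19 at 2 SE (adjusted p = 0.251). With scaling by library size only it was 0.17 and passed (adjusted p = 0.0158). MNNG/HOS is known for a rearrangement that joins *TPR*, a nuclear pore gene, to the kinase part of *MET*, and counts per gene cannot separate the fusion from full-length *MET*. *TPR* itself was at 182 ± 8.3 CPM in the DMSO libraries at 6 h and 188 ± 5.49 CPM in the NXP800 libraries (log2 fold change 0.050, SE 0.0685, adjusted p = 0.564), and at 191 ± 4.74 and 161 ± 16.1 CPM at 24 h (-0.24, SE 0.0686, adjusted p = 0.00642). The *TPR* fall at 24 h did not pass with scaling by library size only (-0.15, adjusted p = 0.116). The 250 bases before the *MET* start are shown for the receptor with the rearrangement, since a fusion to *TPR* leaves them behind, with GC boxes in capitals.
MET chr7:116671946-116672195 (plus strand): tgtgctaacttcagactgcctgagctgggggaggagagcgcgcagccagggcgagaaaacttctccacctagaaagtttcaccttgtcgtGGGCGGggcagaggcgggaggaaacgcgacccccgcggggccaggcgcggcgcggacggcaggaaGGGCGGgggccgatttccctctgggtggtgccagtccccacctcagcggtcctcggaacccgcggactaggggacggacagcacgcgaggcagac

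*EPHA2* (gene ID 1969, chromosome 1, 16124337 to 16156069), a receptor of ephrin-A ligands on neighbouring cells, went in opposite directions at the 2 times. It was measured at 256, 230 and 263 CPM in the DMSO libraries at 6 h and 314, 295 and 281 CPM in the NXP800 libraries. At 24 h it was at 352, 382 and 386 CPM in DMSO and 218, 251 and 233 CPM in NXP800. All NXP800 libraries were above DMSO at 6 h and all were below at 24 h. The rise at 6 h was 1.19-fold (log2 fold change 0.25, SE 0.0727, adjusted p = 0.00864) and the fall at 24 h 1.59-fold (-0.67, SE 0.0729, adjusted p = 9.85e-07). The rise did not pass without DMSO 6 h replicate 2 (0.19, adjusted p = 0.0546). The responses differed by -0.92 (SE 0.103, adjusted p = 1.13e-05). Of all tested genes, 175 (1.10%) rose at 6 h and fell at 24 h. The *EPHA2* promoter is shown because it is the only one of the 16 promoter windows of these genes that holds a full cAMP response element, TGACGTCA, at bases 51 to 44 before the start; capitals mark this element, a GC box and a TEAD site, GGAATG on either strand.
EPHA2 chr1:16156070-16156319 (minus strand): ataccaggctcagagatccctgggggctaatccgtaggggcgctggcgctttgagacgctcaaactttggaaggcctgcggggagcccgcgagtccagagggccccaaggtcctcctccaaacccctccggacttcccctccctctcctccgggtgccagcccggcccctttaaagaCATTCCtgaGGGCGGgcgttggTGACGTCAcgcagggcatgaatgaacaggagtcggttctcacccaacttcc

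Of the FGF receptors, *FGFR1* and *FGFR2* fell at both times. *FGFR3* fell at 6 h (log2 fold change -1.44, adjusted p = 0.00139) and did not pass at 24 h (-0.48, adjusted p = 0.183). It had at most 35 counts in a library. *FGFR4* did not pass at 6 h (-0.27, adjusted p = 0.192) and fell at 24 h (-0.96, adjusted p = 8.48e-05). *FGFR1* (gene ID 2260, chromosome 8, 38411143 to 38468635) was measured at 154, 153 and 149 CPM in the DMSO libraries at 6 h and 107, 113 and 108 CPM in the NXP800 libraries. The 24 h libraries held 160, 142 and 140 CPM in DMSO and 109, 99.4 and 111 CPM in NXP800. The groups did not overlap at either time, and the log2 fold change was -0.47 at both (SE 0.0639, adjusted p = 1.22e-05 at 6 h, and SE 0.064, adjusted p = 1.1e-05 at 24 h), a 1.39-fold fall. The difference of the responses was 0.0026, between -0.18 and 0.18 at 2 SE (adjusted p = 0.99).

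*FGFR2* (gene ID 2263, chromosome 10, 121478330 to 121598458) had few counts, with 75, 76 and 55 in DMSO and 27, 63 and 39 in NXP800 at 6 h and 59, 76 and 94 against 40, 34 and 41 at 24 h. The libraries overlapped at 6 h and not at 24 h. The falls were 1.63-fold at 6 h (log2 fold change -0.70, SE 0.27, adjusted p = 0.0383) and 2.1-fold at 24 h (-1.07, SE 0.271, adjusted p = 0.00314). The fall at 6 h was -0.46 without NXP800 replicate 1 of that time (adjusted p = 0.182) and -1.08 without NXP800 replicate 2. It also missed the threshold without DMSO 6 h replicate 1 or 2, NXP800 6 h replicate 3 or NXP800 24 h replicate 2, and in DESeq2's Wald test (adjusted p = 0.0534). The difference of the responses was -0.37, between -1.14 and 0.40 at 2 SE (adjusted p = 0.527).

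The PDGF receptors and *KIT*, which share the fold of class III receptors with an immunoglobulin-like outer part and a split kinase domain, gave the 3 largest falls of the 10 genes at 24 h. Of the same class, *FLT3* fell at 6 h (-1.07, adjusted p = 0.0123) and did not pass at 24 h (-0.63, adjusted p = 0.137). *CSF1R* passed at neither time (-0.35, adjusted p = 0.403, and -0.73, adjusted p = 0.107). Both had at most 38 counts in a library. *PDGFRA* (gene ID 5156, chromosome 4, 54229293 to 54298245) was measured at 45.4, 41.2 and 40.6 CPM in the DMSO libraries at 6 h and 27.7, 28.9 and 28.8 CPM in the NXP800 libraries. At 24 h it was at 55.7, 61.4 and 50.3 CPM in DMSO and 18.9, 17.4 and 15.3 CPM in NXP800. All NXP800 libraries were lower at both times. The fall was 1.49-fold at 6 h (log2 fold change -0.57, SE 0.0868, adjusted p = 3.94e-05) and 3.25-fold at 24 h (-1.70, SE 0.0899, adjusted p = 3.69e-10), a difference of -1.12 (SE 0.124, adjusted p = 9.86e-06). An overlapping gene model shares 16.1% of its exon length. The 250 bases before the downstream of 2 *PDGFRA* starts are shown for the receptor with the largest change between the times, with GC boxes in capitals. The window of the upstream start, which holds an AP-1 site, TGANTCA, is not shown.
PDGFRA chr4:54233710-54233959 (plus strand): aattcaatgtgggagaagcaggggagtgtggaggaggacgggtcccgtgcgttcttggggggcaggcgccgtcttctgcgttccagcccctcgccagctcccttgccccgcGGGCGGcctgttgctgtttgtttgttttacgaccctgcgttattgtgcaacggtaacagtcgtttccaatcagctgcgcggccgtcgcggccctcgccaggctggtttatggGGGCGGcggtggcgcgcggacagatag

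*PDGFRB* (gene ID 5159, chromosome 5, 150113839 to 150155845) was measured at 13.8, 12.3 and 10.6 CPM in the DMSO libraries at 6 h and 7.98, 7.99 and 5.59 CPM in the NXP800 libraries. The 24 h libraries held 22.5, 25.8 and 22.4 CPM in DMSO and 7.43, 7.4 and 9.7 CPM in NXP800. The groups did not overlap at either time, and DMSO libraries of the 24 h set stood above those of the 6 h set. The fall was 1.7-fold at 6 h (log2 fold change -0.77, SE 0.147, adjusted p = 0.000365) and 2.88-fold at 24 h (-1.53, SE 0.144, adjusted p = 2.03e-07), a difference of -0.76 (SE 0.205, adjusted p = 0.0125).

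*KIT* (gene ID 3815, chromosome 4, 54657957 to 54740715), the receptor of stem cell factor, had 89, 76 and 69 counts in DMSO and 18, 23 and 22 in NXP800 at 6 h, and 49, 45 and 35 against 12, 10 and 10 at 24 h. All NXP800 libraries were lower at both times. The fall was 3.77-fold at 6 h (log2 fold change -1.91, SE 0.213, adjusted p = 1.7e-06) and 4.21-fold at 24 h (-2.07, SE 0.253, adjusted p = 3.59e-06). The responses did not differ detectably (-0.16, between -0.83 and 0.51 at 2 SE, adjusted p = 0.771). At this level the result rests on 10 to 89 counts per library.

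**Figure D3:**
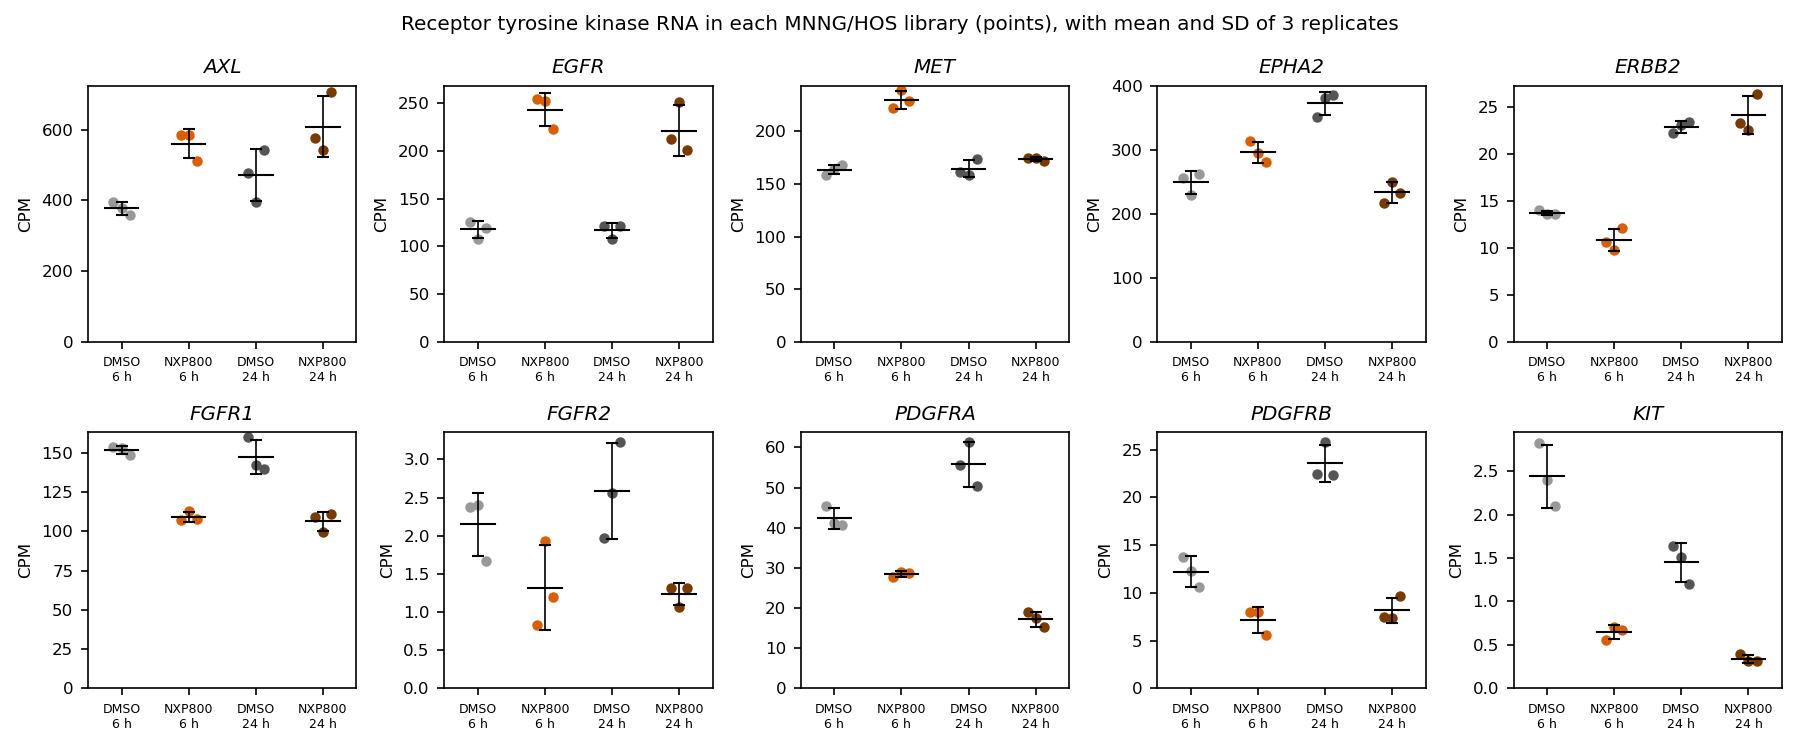
CPM of each receptor gene in the 12 libraries (points), with the mean and SD of 3 replicates per group. *EGFR* is higher with NXP800 at both times, *PDGFRA* falls to 15.3 to 18.9 CPM at 24 h, and *EPHA2* with NXP800 lies above DMSO at 6 h and below it at 24 h.

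Of the 10 receptor genes, the response at 24 h differed from that at 6 h for *MET* (-0.41, SE 0.0807, adjusted p = 0.0016), *ERBB2* (0.42, SE 0.127, adjusted p = 0.0249), *PDGFRA*, *PDGFRB* and *EPHA2* (values above), and of these *ERBB2* lay above 0 and the others below. Of all tested genes, 25.8% had a called difference. With scaling by library size only, 59.6% of all called differences lay above 0 against 46.6% with TMM scaling. The *ERBB2* difference did not pass when 1 of 5 libraries was left out: DMSO 6 h replicate 1, NXP800 6 h replicate 1 or 2, DMSO 24 h replicate 1 or NXP800 24 h replicate 3 (0.35 to 0.40, adjusted p = 0.0523 to 0.074). The summed CPM of the 10 genes was 1134 ± 32.1 in DMSO and 1488 ± 75 in NXP800 at 6 h, and 1379 ± 82.6 and 1395 ± 71.7 at 24 h, most of it from *AXL*, *EPHA2*, *MET*, *EGFR* and *FGFR1*.

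RefSeq promoters were found for 9 of the 10 genes, all but *FGFR1*, in 16 windows of 250 bases before a start. Motifs were searched on both strands. A GC box, GGGCGG, was in 9 of the 16 windows and 42.6% of all 35116 promoters, and the cAMP response element, TGACGTCA, in 1 window (*EPHA2*) and 1.65% of promoters. An AP-1 site, TGANTCA, was in 3 windows (*PDGFRA*, *EGFR* and *ERBB2*) and 6.57% of promoters, and TGATGNAA, the core of the element bound by ATF4 with C/EBP factors, in 1 (*FGFR2*) and 3.14%. The heat shock element core GAANNTTC was in 2 windows (*FGFR2* and *ERBB2*) and 5.78% of promoters, and the TEAD site GGAATG in 5 windows and 11.9% of promoters. Some windows lie in annotated untranslated regions (GENCODE v44, either strand). These regions cover all 250 bases of the *FGFR2* window with the heat shock core. They also cover 180 bases of the *ERBB2* window and 116 of the downstream *EGFR* window, which holds the AP-1 sites of that gene. The printed windows of *EPHA2*, *EGFR*, *MET* and *PDGFRA* hold no such bases. Windows of 1 gene can overlap, and a match describes letters only.

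The largest rises among the ligands of these receptors were those of EGF-type ligands at 6 h. Of 31 listed ligands, 25 were tested, 9 rose and 8 fell at 6 h (36.0% and 32.0% of those tested), near the 25.0% and 27.8% of all tested genes, and their median log2 fold change was 0.25. At 24 h 3 rose and 4 fell of the 25, beside 27.5% and 28.6% of all tested genes, and the median was -0.076. With the replicate block 5 rose at 24 h, as did 5117 of all 15979 tested genes against 4387 without it. Not tested for low counts were *HGF*, the ligand of MET, with 0 counts in every library, and *EPGN*, *NRG3*, *FGF7*, *FGF9* and *FGF10* with at most 7 counts.

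*EREG*, epiregulin, a ligand of EGFR, was measured at 22.1, 18.8 and 18.7 CPM in the DMSO libraries at 6 h and 128, 154 and 118 CPM in the NXP800 libraries, a 6.72-fold rise (log2 fold change 2.75, SE 0.238, adjusted p = 1.08e-07). *AREG*, amphiregulin, another ligand of EGFR, had 15, 9 and 25 counts in DMSO and 323, 314 and 243 in NXP800, a 17.6-fold rise (4.13, SE 0.329, adjusted p = 4.41e-08). *NRG1*, neuregulin 1, which binds ERBB3 and ERBB4, was at 46.7, 48.9 and 46.5 CPM in DMSO and 215, 223 and 172 CPM in NXP800 (2.10, SE 0.118, adjusted p = 1.03e-09). NXP800 libraries stood clear of DMSO for all 3 ligands at 6 h. *HBEGF*, which binds EGFR, rose by 1.59 (SE 0.157, adjusted p = 4.42e-07). At 24 h none of the 4 passed, with log2 fold changes of 0.43 for *AREG*, -0.19 for *EREG*, 0.037 for *NRG1* and 0.33 for *HBEGF* (adjusted p = 0.454, 0.561, 0.807 and 0.088), but *HBEGF* depended on the setting. It passed with the replicate block (0.30, adjusted p = 0.0478), with library size only (0.43, adjusted p = 0.045), without a filter (0.35, adjusted p = 9.57e-05) and without NXP800 24 h replicate 3 (0.48, adjusted p = 0.0154), and was 0.098 without NXP800 24 h replicate 2. The responses differed between the times for *AREG* (-3.71, adjusted p = 0.000348), *EREG* (-2.93, adjusted p = 1.98e-05), *NRG1* (-2.07, adjusted p = 6.5e-07) and *HBEGF* (-1.26, adjusted p = 0.000616). The receptors ERBB3 and ERBB4 themselves had at most 13 and 4 counts in a library. *NRG2* fell by 1.57 at 6 h (SE 0.192, adjusted p = 4.48e-06).

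The ligands of the falling receptors did not share a direction. Those of AXL, whose RNA rose, and of the other TAM receptors are given last. *KITLG*, stem cell factor, was at 3.14, 2.74 and 2.16 CPM in the DMSO libraries at 6 h and 6.66, 7.13 and 6.69 CPM in the NXP800 libraries, a rise of 1.35 on the log2 scale (SE 0.245, adjusted p = 0.000223), while *KIT* fell. At 24 h *KITLG* was at 1.67, 1.31 and 1.68 CPM in DMSO and 4.89, 2.76 and 1.82 CPM in NXP800 (1.01, SE 0.279, adjusted p = 0.00541). Its value at 24 h was 0.56 without NXP800 replicate 1 and still passed. *PDGFA*, a ligand of PDGFRA, rose by 0.97 at 6 h (SE 0.186, adjusted p = 0.00037) and 1.44 at 24 h (SE 0.162, adjusted p = 1.44e-06), and *PDGFC*, of the same family, by 1.39 at 6 h (SE 0.107, adjusted p = 3.15e-08) against 0.17 at 24 h (adjusted p = 0.205). The 24 h value of *PDGFC* passed with library size only (0.25, adjusted p = 0.0495) and without NXP800 24 h replicate 3 (0.29, adjusted p = 0.0164), and was 0.027 without NXP800 24 h replicate 1. Of the other listed PDGF ligands, *PDGFB* passed at neither time (0.48, adjusted p = 0.0578, and 0.31, adjusted p = 0.17). *PDGFD* fell at 6 h (-0.82, adjusted p = 0.0173) and did not pass at 24 h (-0.61, adjusted p = 0.0779). *FGF2*, basic fibroblast growth factor, rose by 0.91 at 6 h (SE 0.0892, adjusted p = 4.22e-07) and 0.84 at 24 h (SE 0.0947, adjusted p = 1.44e-06), and *FGF1* fell by 1.14 at 6 h (SE 0.194, adjusted p = 0.000126) and 2.07 at 24 h (SE 0.246, adjusted p = 2.74e-06). *GAS6*, the AXL ligand, fell by 0.67 at 6 h (SE 0.119, adjusted p = 0.000176) and 0.61 at 24 h (SE 0.114, adjusted p = 0.000255). *PROS1*, protein S, a ligand of the other TAM receptors, fell by 0.49 at 24 h (SE 0.182, adjusted p = 0.031). It ranged from -0.74 without NXP800 24 h replicate 3 to -0.33 without NXP800 24 h replicate 2 (adjusted p = 0.161), and did not pass without DMSO replicate 2 or 3 or NXP800 replicate 1 of that time either.

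**Figure D4:**
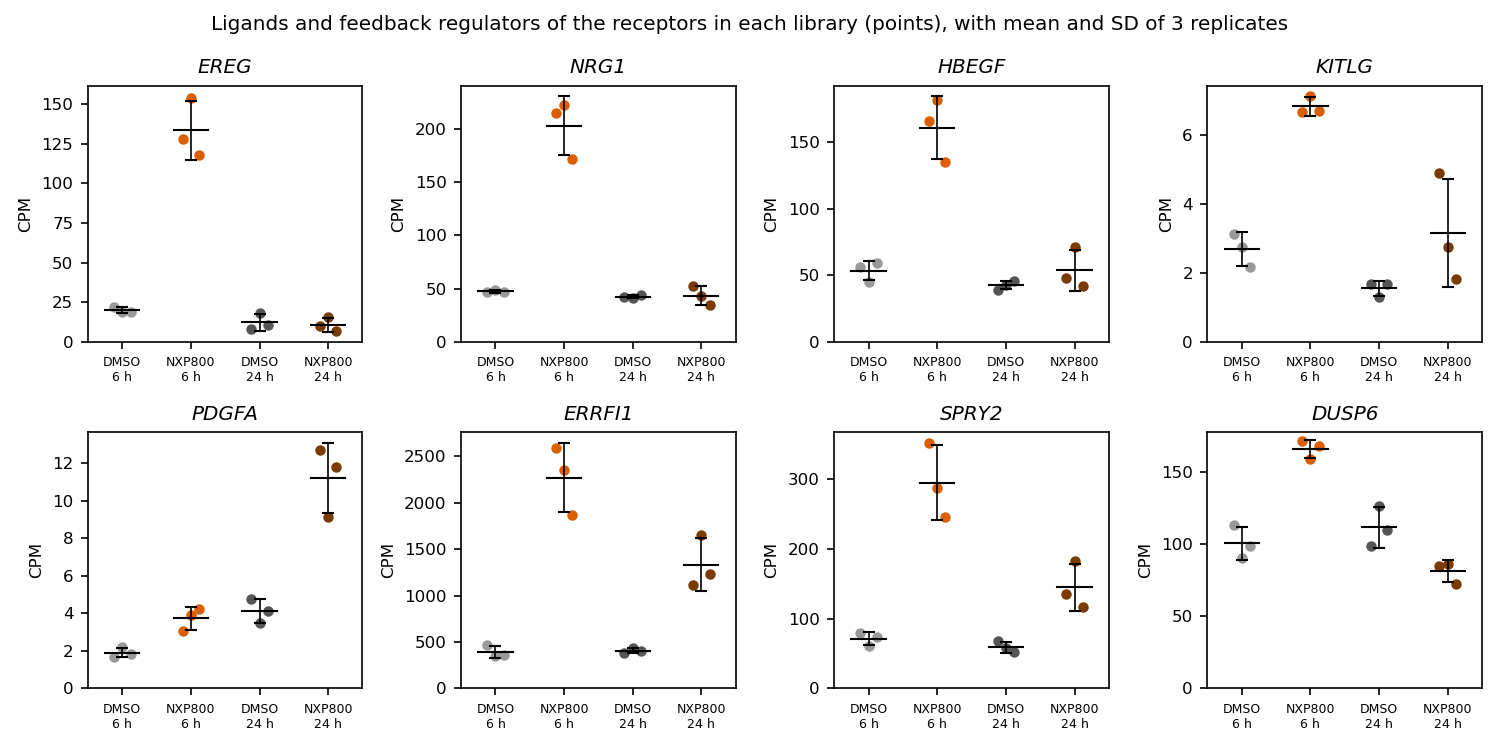
CPM of 5 ligands (*EREG*, *NRG1*, *HBEGF*, *KITLG*, *PDGFA*) and 3 feedback regulators (*ERRFI1*, *SPRY2*, *DUSP6*) in the 12 libraries (points), with the mean and SD of 3 replicates per group. *EREG*, *NRG1* and *HBEGF* with NXP800 stand above DMSO at 6 h and overlap with it at 24 h, *ERRFI1* and *SPRY2* stay above DMSO at both times, and *DUSP6* is above it at 6 h and below it at 24 h.

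Among the 48 other receptor tyrosine kinases, 32 were tested. At 6 h 5 rose and 15 fell (15.6% and 46.9%), at a median log2 fold change of -0.39, and at 24 h 5 rose and 12 fell (15.6% and 37.5%), with a median of -0.18. Of all tested genes, 25.0% rose and 27.8% fell at 6 h and 27.5% and 28.6% at 24 h. With the replicate block 8 rose at 24 h, as did 5117 of all 15979 tested genes against 4387 without it. *DDR2*, a collagen receptor, was at 24.1, 25.9 and 22.8 CPM in the DMSO libraries at 6 h and 75.5, 89.8 and 77.4 CPM in the NXP800 libraries, a 3.33-fold rise (log2 fold change 1.74, SE 0.102, adjusted p = 1.55e-09) that was 2.16-fold at 24 h (1.11, SE 0.1, adjusted p = 1.21e-07). *IGF1R*, the receptor of insulin-like growth factors, was at 78.6, 66.1 and 67.6 CPM in the DMSO libraries at 6 h and 166, 169 and 131 CPM in the NXP800 libraries (1.13, SE 0.0939, adjusted p = 6.85e-08). At 24 h its log2 fold change was -0.074 (adjusted p = 0.528), or 0.019 with scaling by library size only. *EPHA4* rose at 6 h (0.82, SE 0.122, adjusted p = 3.16e-05), and *LTK* (0.80, adjusted p = 0.00564) and *EPHB2* (0.56, adjusted p = 4.75e-05) rose at 24 h.

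*ROS1*, a receptor known from oncogenic fusions, went from 2, 1 and 0 counts in DMSO to 43, 23 and 22 in NXP800 at 6 h (adjusted p = 4.53e-06) and was at 3, 5 and 2 against 8, 11 and 6 counts at 24 h.

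*EPHB3*, an ephrin-B receptor, gave the largest fall in that list at both times. It had 73, 67 and 76 counts in DMSO and 10, 8 and 12 in NXP800 at 6 h and 145, 160 and 134 against 13, 13 and 20 at 24 h, a log2 fold change of -2.86 (SE 0.228, adjusted p = 4.58e-08) and -3.32 (SE 0.2, adjusted p = 1.4e-09). *EPHB1* fell by 1.77 (SE 0.169, adjusted p = 3.06e-07) and *EPHB4* by 1.30 (SE 0.103, adjusted p = 4.22e-08) at 6 h. At 24 h the *EPHB4* fall was 1.33-fold (-0.41, adjusted p = 0.00159), and its responses differed (0.89, adjusted p = 0.000255). *EPHB1* also fell at 24 h (-0.64, adjusted p = 0.0016). *FLT1*, a VEGF receptor, fell by 1.68 (SE 0.272, adjusted p = 6.63e-05) and *ROR1*, a WNT5A receptor, by 1.34 (SE 0.127, adjusted p = 2.14e-07) at 24 h. The *ROR1* fall at 6 h was 0.33 (adjusted p = 0.0322). *TYRO3*, of the family of *AXL*, fell by 0.58 at 6 h (SE 0.111, adjusted p = 0.000343) and 0.65 at 24 h (SE 0.108, adjusted p = 8.06e-05), opposite to *AXL*. *MERTK*, of the same family, rose at 6 h as *AXL* did (0.32, adjusted p = 0.0285) and did not pass at 24 h (0.063, adjusted p = 0.666). Of the 16 not tested, none had more than 20 counts in a library.

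All 20 adaptors and proximal enzymes were tested. At 6 h 8 rose and 5 fell (40.0% and 25.0%), at a median log2 fold change of 0.068, and at 24 h 8 rose (40.0%) and 2 fell, with a median of 0.12, beside 25.0% and 27.8% of all tested genes at 6 h and 27.5% and 28.6% at 24 h. With scaling by library size only, 15 rose at 24 h, as did 5327 of all 15979 tested genes against 4387 with TMM scaling. *IRS2*, a docking protein of insulin-type receptors, rose at both times (1.18, SE 0.106, adjusted p = 1.69e-07 at 6 h and 0.93, SE 0.105, adjusted p = 1.47e-06 at 24 h). So did *RASA1*, a RAS GTPase-activating protein (0.85, adjusted p = 1.04e-05, and 0.87, adjusted p = 7.06e-06), and *GAB2*, a docking protein (0.69, adjusted p = 0.00205, and 0.98, adjusted p = 4.72e-05). *PLCG1*, phospholipase C gamma, fell at both times (-0.66, adjusted p = 8.15e-06, and -0.57, adjusted p = 2.91e-05), as did *SHC1* (-0.20, adjusted p = 0.00697, and -0.40, adjusted p = 1.74e-05). *PIK3R1* (-0.50, adjusted p = 0.000373) and *SOS1* (-0.36, adjusted p = 0.00404) fell at 6 h.

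Of 24 negative regulators, 12 rose and 3 fell at 6 h (50.0% and 12.5%), at a median log2 fold change of 0.17, and 10 rose and 8 fell at 24 h (41.7% and 33.3%), with a median of 0.075. The shares over all tested genes were 25.0% and 27.8% at 6 h and 27.5% and 28.6% at 24 h, so the share that fell at 24 h was near that of all genes. With the replicate block 5 fell at 6 h, as did 5331 of all 15979 tested genes against 4435 without it. *ERRFI1*, a feedback inhibitor of EGFR also called MIG6, was at 464, 352 and 355 CPM in the DMSO libraries at 6 h and 2592, 2352 and 1863 CPM in the NXP800 libraries, a 5.81-fold rise (2.54, SE 0.153, adjusted p = 2.11e-09). At 24 h it was at 376, 438 and 406 CPM in DMSO and 1115, 1653 and 1230 CPM in NXP800, a 3.28-fold rise (1.71, SE 0.148, adjusted p = 7.9e-08). The *ERRFI1* groups were far apart at both times. *SPRY2*, a Sprouty inhibitor of RAS-ERK signalling, rose by 2.05 (SE 0.155, adjusted p = 2.53e-08) and 1.30 (SE 0.154, adjusted p = 2.61e-06), whereas *SPRY1* fell by 1.06 (SE 0.137, adjusted p = 8.19e-06) and 1.59 (SE 0.141, adjusted p = 1.04e-07). *SPRED3*, a related inhibitor, rose by 1.57 and 1.16 (adjusted p = 2.01e-07 and 3.53e-06).

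The ubiquitin ligases *CBL*, which acts on EGFR, MET and KIT, and *RNF41*, which acts on ERBB3, rose at both times. *CBL* changed by 0.86 (SE 0.105, adjusted p = 4.66e-06) and 0.50 (SE 0.106, adjusted p = 0.000803), and *RNF41* by 1.06 (SE 0.0645, adjusted p = 2.36e-09) and 0.66 (SE 0.064, adjusted p = 2.99e-07). *PTPRJ*, a receptor phosphatase, fell by 1.23 at 6 h (SE 0.0943, adjusted p = 2.84e-08) and 0.85 at 24 h (SE 0.0926, adjusted p = 1.07e-06). *SOCS3* fell at both times (-0.53, adjusted p = 4.33e-05, and -0.82, adjusted p = 3.76e-07), and *UBASH3B* fell at 24 h (-0.87, adjusted p = 3.74e-08).

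The 14 ERK output genes, whose transcription follows ERK activity in many cells, were mostly higher with NXP800 at 6 h. Of these, 12 rose and 2 fell at 6 h (85.7% and 14.3%), at a median log2 fold change of 0.82, and 4 rose and 4 fell at 24 h (28.6% each), with a median of 0.067. Over all tested genes 25.0% rose and 27.8% fell at 6 h, and the shares at 24 h, 27.5% and 28.6%, were about those of this list. *SPRY2* and *SPRY4* are also in the list of negative regulators and *EPHA4* in that of other receptors. *DUSP5*, an ERK phosphatase, was at 70.4, 68.5 and 68.5 CPM in the DMSO libraries at 6 h and 261, 249 and 213 CPM in the NXP800 libraries (1.80, SE 0.0888, adjusted p = 2.45e-10), and rose by 1.03 at 24 h (SE 0.0879, adjusted p = 6.96e-08). *PHLDA1* rose by 1.69 and 0.91 (adjusted p = 5.55e-10 and 2.98e-07). *CCND1*, cyclin D1, fell by 0.50 at 6 h (SE 0.0811, adjusted p = 7.62e-05), and *DUSP4* fell by 0.35 and 0.61 (adjusted p = 0.00121 and 6.88e-06).

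Some ERK output genes turned direction between the times. *ETV5* did not and rose at both (1.00, adjusted p = 2.98e-07, and 0.86, adjusted p = 1.13e-06). *DUSP6*, the cytoplasmic ERK phosphatase, was at 113, 90.5 and 98.4 CPM in the DMSO libraries at 6 h and 171, 159 and 168 CPM in the NXP800 libraries, and at 98.3, 126 and 110 against 85, 85.9 and 72.5 CPM at 24 h. NXP800 libraries were all above DMSO at 6 h and all below at 24 h. The log2 fold changes were 0.72 (SE 0.0947, adjusted p = 9.19e-06) and -0.46 (SE 0.0954, adjusted p = 0.000671), and the difference was -1.18 (SE 0.134, adjusted p = 1.35e-05). *ETV1* went from 0.35 (adjusted p = 0.00171) to -1.28 (adjusted p = 4.6e-09), a difference of -1.63 (SE 0.119, adjusted p = 2.91e-07). *ETV4* went from 0.18 (adjusted p = 0.0457) to -0.47 (adjusted p = 3.55e-05), a difference of -0.65 (SE 0.102, adjusted p = 0.000232), and its rise at 6 h did not pass when any of the 6 libraries of that time was left out, or DMSO 24 h replicate 2. *EGR1* was at 58.2, 19.2 and 27.3 CPM in the DMSO libraries at 6 h and 206, 39 and 52.1 CPM in the NXP800 libraries (1.51, SE 0.515, adjusted p = 0.0213). It was higher with NXP800 in each of the 3 pairs of the same replicate number, and under the replicate block the rise was 1.31 (SE 0.143, adjusted p = 3.41e-07). Without the block it was 0.39 when NXP800 6 h replicate 1 was left out and its DMSO partner kept (adjusted p = 0.443), and it did not pass without DMSO 6 h replicate 2 (1.21, adjusted p = 0.0923) or replicate 3 (1.36, adjusted p = 0.0691).

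**Figure D5:**
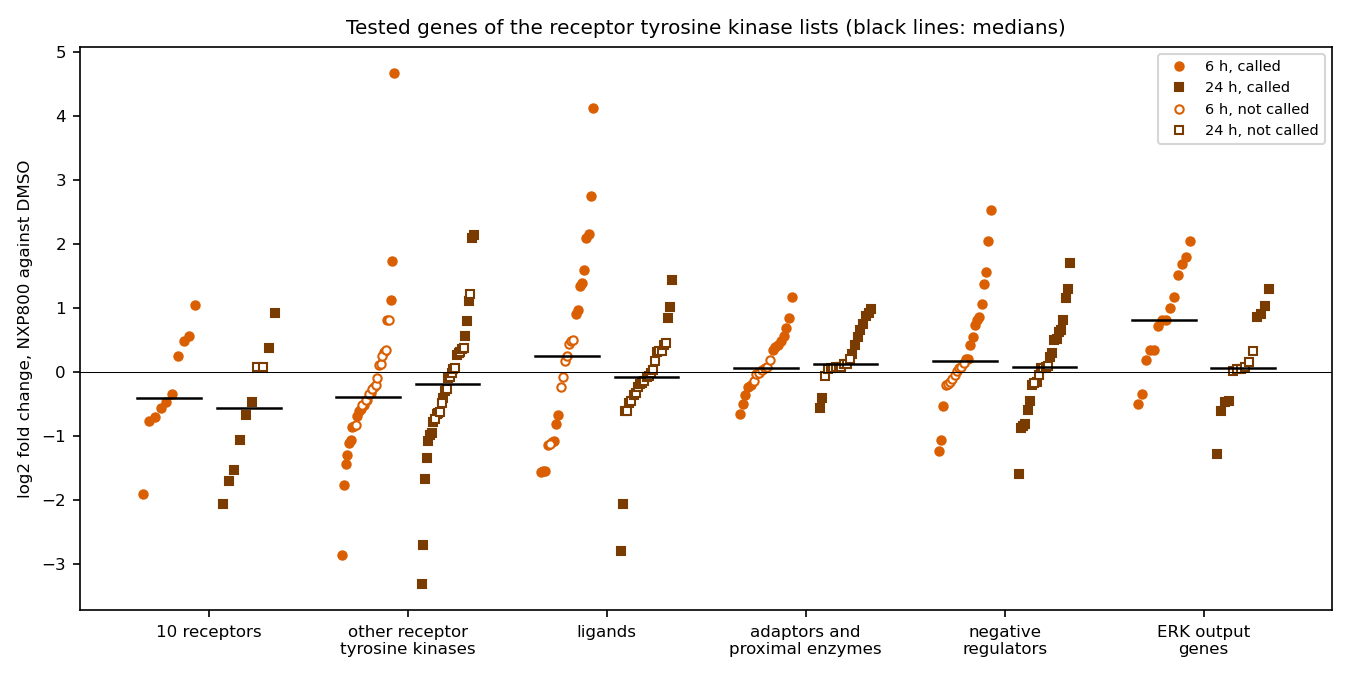
Log2 fold change with NXP800 against DMSO for every tested gene (points) of the receptors, the other receptor tyrosine kinases, the ligands, the adaptors, the negative regulators and the ERK output genes at 6 h and 24 h, with black lines for the medians. The medians of the ERK output genes are 0.82 at 6 h and 0.067 at 24 h, and those of the 10 receptors -0.41 and -0.57.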

How the data were processed

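PolyA RNA of MNNG/HOS cells was sequenced as paired ends from strand-specific libraries, and the authors deposited raw counts, 1 per gene symbol, with no normalization. Per the submitters' processing notes and the study's methods, reads were trimmed with fastp 0.20.1, aligned with STAR 2.7.5a to hg38 and counted with HTSeq 0.12.4 on RefSeq genes (GRCh38.p14). The strand setting and the counting mode are not given in the sources used here, so reads of a gene and an overlapping partner may not be separated. The counter's summary lines, which name no gene, entered neither library sizes nor tests. Reads aligned to several places were 1.86 to 3.37% and ambiguous reads 2.1 to 2.43% of a library.

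The software was edgeR 4.0.16, DESeq2 1.42.0 and limma 3.58.1 under R 4.3.3. filterByExpr kept 15979 of 43236 symbols. edgeR's quasi-likelihood test was run after TMM scaling in 1 model of the 4 groups, with Benjamini-Hochberg adjustment over all tested genes, separately for each of the 3 contrasts: the response to NXP800 (against DMSO) at 6 h, that at 24 h, and the later response less the earlier. A gene was called at an adjusted p below 0.05. "Rose" and "fell" refer to such calls, the standard error (SE) is the log2 fold change divided by the root of F, and CPM are on TMM-scaled library sizes. The procedure was tested on simulated data with a small set of changed genes at 6 h and no pairing. That test does not cover broad change or paired libraries. Positions and promoters are from RefSeq (GRCh38.p14), and transcript lengths and exon overlaps, on either strand, from GENCODE v44, which can differ from the models counted on.

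At 30810614 to 31947656 counts per library, precision is set by the replicate spread for most genes and by counting error for low ones. Replicates differed by more than sampling noise (chi-square divided by its degrees of freedom: 7.95 to 28.6, genes with 20 or more counts on average), and none was counted as a duplicate. NXP800 and DMSO libraries of the same replicate number and time deviated together from their group means (r of 0.159 to 0.329 across genes, against at most 0.058 for different numbers), so the numbers pair the libraries. The study does not describe this pairing, which comes from the labels' numbers and the data. The reported model holds group means only and does not use the pairing, which the replicate block adds. With the block 4622 genes rose and 5331 fell at 6 h, against 4000 and 4435 as reported. At 24 h 5117 rose and 5294 fell with it, against 4387 and 4566.

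The 10 receptors, the gene lists, the motifs and the markers were chosen from general knowledge with earlier results of these data known. 1 of the listed markers is not reported here. Named genes are the 10 receptors, *TPR* and, per list, up to 3 called genes with the largest rise and 3 with the largest fall at each time if their log2 CPM averaged 1 or more. *HBEGF*, *PDGFC*, *FGF1*, *TYRO3*, *CBL*, *RNF41*, *DUSP6*, *ROS1*, *EGR1*, *ETV5*, *FGFR3*, *FGFR4*, *FLT3* and *CSF1R*, and values of rule-named genes at the other time, were added after the values were seen. So were *MERTK*, *PDGFB* and *PDGFD*. For *ETV5*, *FGFR3*, *FGFR4*, *FLT3*, *CSF1R*, *MERTK*, *PDGFB* and *PDGFD*, values under other settings are not given. Alternatives tried were scaling with DESeq2's size factors or by library size only, no filter, at least 10 counts in every library, the replicate block, DESeq2's Wald test, each time point alone, an adjusted p below 0.01 and each library left out in turn.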

Additional observations from a re-analysis of the deposited data

Results flagged for a closer look

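For 5 of the 10 receptor genes the response to NXP800 differed between the time points, by a test of the difference itself (edgeR's quasi-likelihood test of the 24 h response less the 6 h response, adjusted over all tested genes). On the log2 scale the difference was -0.41 for *MET*, which rose at 6 h and did not pass at 24 h. It was 0.42 for *ERBB2*, which fell at 6 h and did not pass at 24 h. For *PDGFRA* it was -1.12 and for *PDGFRB* -0.76, both of which fell at the 2 times, with the larger fall against DMSO at 24 h. With NXP800 *PDGFRB* was at 7.19 ± 1.38 CPM at 6 h and 8.18 ± 1.32 CPM at 24 h. In DMSO it was at 12.2 ± 1.62 and 23.6 ± 1.94 CPM. For *EPHA2*, which rose at 6 h and fell at 24 h, the difference was -0.92. Of all tested genes, 25.8% had a called difference. The DMSO libraries of the 2 time points also differed in the share of reads on no annotated gene, and exposure time cannot be told apart from the library set.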

How the results depend on the processing

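Among the 10 receptor genes, the direction and the call stayed as reported in 194 of the values under other settings and 338 of those with a library left out. The direction turned only for differences that were not called: *FGFR1*, at 0.0026 as reported, was -0.0036 with DESeq2 size factors, -0.0055 in DESeq2's Wald test and between -0.034 and 0.065 with a library left out, and *FGFR2*, at -0.37, lay between -0.61 and 0.0095. The *IGF1R* value at 24 h turned to 0.019 with library size only. Counts of receptor genes with a library left out were 3 to 4 that rose and 5 to 6 that fell at 6 h, 1 to 2 that rose at 24 h, and 0 to 1 differences above 0, which was also 0 at an adjusted p below 0.01. With the time point alone, *FGFR2* at 6 h missed the threshold (-0.67, adjusted p = 0.0583). Other receptor tyrosine kinases that rose at 24 h numbered 8 without a filter and 8 with the replicate block, and 5 to 8 with a library left out. Ligands that fell at 6 h were 4 with at least 10 counts in every library and 5 at an adjusted p below 0.01. Ligands that rose at 24 h were 5 with library size only, 5 without a filter, 5 with the replicate block and 3 to 5 with a library left out. Ligands that fell at 24 h were 2 with at least 10 counts in every library and 2 with the time point alone. Adaptors that rose at 24 h were 15 with library size only, and negative regulators that fell at 6 h were 5 with the replicate block and 3 to 5 with a library left out. The replicate block also called more of all tested genes: 5117 against 4387 rose at 24 h and 5331 against 4435 fell at 6 h. The causes of these changes were not tested, apart from the filter of at least 10 counts and the stricter threshold, which test or call fewer genes by construction. Leaving out 1 library breaks a pair, and no library was left out under the replicate block. The calls of the 10 receptor genes lost with a library left out passed with all libraries and the block: *EPHA2* at 6 h (0.25, adjusted p = 0.000553), *FGFR2* at 6 h (-0.72, adjusted p = 0.00828), *AXL* at 24 h and the *ERBB2* difference (0.42, adjusted p = 0.00477). Whether these calls hold under the block with a library left out was not tested. Beyond the values printed beside the results, the replicate block changed no other call of a receptor gene. Depth limits the statements on *KIT* and *FGFR2*, at 10 to 94 counts per library, and on the receptors and ligands left untested.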
